A study of Equus caballus with 4 samples.

Results

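HOX cluster genes were examined in differentiating equine satellite cells (ESCs), the muscle stem cells of the horse, on 4 two-colour Agilent horse gene arrays. The genes were taken as every gene probe whose symbol in the files is HOX followed by a cluster letter (A, B, C or D) and a number, which gave 24 genes, carried by 46 of the 43603 gene probes, out of 24998 gene names on the array. The RefSeq gene table of the horse lists 39 HOX genes, and all 24 symbols were found in it. A further 33 probes name a HOX gene in their description only and were not counted as members; they are described after the results.

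Each array held RNA of ESCs given 0.125 µM gamma-oryzanol (GO, ferulic acid esters of sterols found in rice bran oil) for 24 h with 3 mM H2O2 in the last 1 h, in red (Cy5), against RNA of control ESCs without GO, in green (Cy3), at day 3 of differentiation. The labels do not say whether the control cells on the arrays received H2O2, but the study's outline of its design gives the control ESCs as incubated with H2O2, and its methods give the DMSO vehicle to the control medium. The cells came from the m. semitendinosus, and the methods name a single primary line chosen from those isolated, so the 4 arrays are taken as repeat cultures, not as 4 animals, and p-values measure the spread between cultures. No array had the dyes swapped, so a dye effect on a probe and an effect of GO cannot be told apart. All values below are log2 ratios of GO and H2O2 over control, after background correction and loess normalisation, unless said otherwise.

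HOX genes encode homeodomain transcription factors and lie in the A, B, C and D clusters on separate chromosomes. Genes of the same number in different clusters are paralogues, and their order along a cluster follows the order in which they are used from head to tail in the embryo, low numbers anterior and high numbers posterior. Limb cells keep part of this regional pattern in the adult, and HOX proteins bind DNA together with the TALE homeodomain cofactors of the PBX, MEIS and PKNOX families. Polycomb complexes keep unused HOX genes silent, MLL complexes keep used HOX genes active, and retinoic acid acts on HOX genes directly.

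Of the 24 HOX genes, 13 had a probe well above background, as Agilent's software flags it, in at least 1 channel on all 4 arrays, and only these were tested. At the level of probes this was 22 of 46, or 47.8%, against 55.6% of all gene probes. Of the 22, 17 passed in both channels, 4 in red alone and 1 in green alone. A further 2 genes passed in part. HOXB2 was well above background on 3 arrays in each channel. HOXC5 was so on 1 array in each, at 1 of its 5 overlapping probes. The log2 signals of that probe were 7.64 in red and 7.69 in green on replicate 4, against 6.54 to 6.79 on the others. The other 9 genes were not well above background in either channel of any array. On the 4 arrays, 23 to 28 HOX probes were well above background in red and 20 to 27 in green.

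By symbol, the share of represented genes that were tested was as follows, with no test of the difference between clusters. In the HOXA cluster, 6 of 8 genes were tested (among them HOXA5, HOXA6, HOXA7, HOXA9 and HOXA10), and HOXA2 and HOXA13 were not well above background. All 3 HOXD genes with a symbol on the array were tested (HOXD3, HOXD9 and HOXD10). In the HOXB cluster, 2 of 7 were tested (HOXB3 and HOXB13), while HOXB1, HOXB5, HOXB6 and HOXB7 were not well above background. In the HOXC cluster, 2 of 6 were tested (HOXC6 and HOXC8), while HOXC4, HOXC11 and HOXC13 were not well above background. With the genes known only from a probe description added, 6 of 10 HOXA, 3 of 8 HOXB, 3 of 9 HOXC and 5 of 9 HOXD genes were tested; of these added genes HOXB9, HOXC9, HOXD8 and HOXD13 were tested, and HOXA3, HOXA11, HOXC10, HOXC12, HOXD1, HOXD4, HOXD11 and HOXD12 were not. By paralogue number and symbol, 3 of 6 genes of groups 1 to 3 were tested, 5 of 10 of groups 4 to 8, and 5 of 8 of groups 9 to 13. HOXB13 was the only one of the 3 represented genes of group 13 that was tested. By symbol, these counts describe single probes or, save for HOXD10, overlapping probes of 60 bases. A gene below background thus has a bound on its signal and not a level. The 2 HOXD10 probes do not overlap, and 1 of them was tested.

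**Figure D1:**
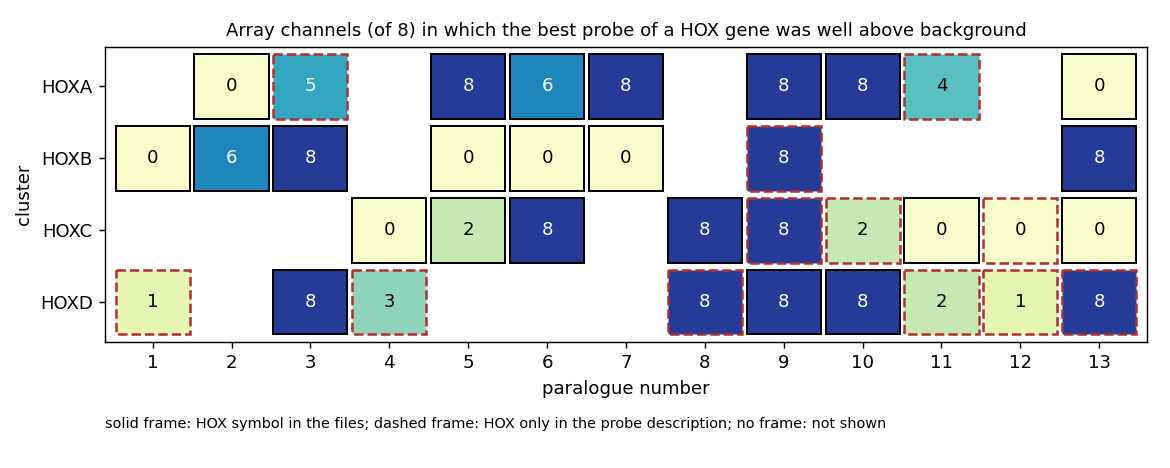
Map of the HOX clusters (rows) by paralogue number (columns), with the number of array channels, of 8 (4 arrays in red and green), in which the best probe of each gene was well above background; darker is more. Solid frames are genes with a HOX symbol and dashed frames are HOX genes known from the probe description only. HOXA5, HOXB3, HOXC6 and HOXD9 stand at 8, while HOXB1, HOXB5, HOXB6 and HOXB7 stand at 0.

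The homeobox is the most alike stretch of HOX genes, and several probes lie in it, so sequences are shown for probes of paralogues that were detected and of paralogues that were not. The probes below are given 5′ to 3′ as on the array, with the coordinates and build (EquCab1) of the files, and capitals mark the motif TTNCAGAANCG, the stretch of 11 bases that probes of the most HOX genes held with at most 1 mismatch; it encodes part of the DNA recognition helix of the homeodomain.
HOXA9, chr4:57736703-57736762 on the minus strand: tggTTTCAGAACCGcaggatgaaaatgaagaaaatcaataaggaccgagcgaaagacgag
HOXD9, chr18:43068064-43068123 on the plus strand: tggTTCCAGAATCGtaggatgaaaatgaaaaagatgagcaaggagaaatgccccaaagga
HOXC6, chr6:70965764-70965823 on the plus strand: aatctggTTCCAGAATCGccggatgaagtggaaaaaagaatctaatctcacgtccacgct
HOXC5, chr6:70970401-70970460 on the plus strand: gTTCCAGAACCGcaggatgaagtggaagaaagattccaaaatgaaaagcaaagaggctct
HOXB13, chr11:23517738-23517797 on the minus strand: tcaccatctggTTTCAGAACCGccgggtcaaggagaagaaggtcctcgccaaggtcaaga
The motif was in 14 HOX probes, of 8 genes, and in 37 of all 43603 gene probes (0.0849%), while its reverse complement was in 8 gene probes. It was picked from these same HOX probes, so its larger share among them was fixed by the choice. The length and the mismatch limit were chosen after the probes had been seen. Pairs of probes were compared without gaps. The HOXA9 and HOXD9 probes shared 39 of 60 bases and both were tested. HOXC6, in 8 of 8 channels, and HOXC5, in 0 of 8 at the probe shown, shared 38 of 54 overlapping bases. Of the 46 HOX probes, 25 had at most 30 identical bases, of 60, in their best match to a HOX probe of another gene. The 6 tested genes with the motif in a probe (among them HOXA9, HOXB3, HOXB13, HOXC6 and HOXD9) are measured in the homeobox, while the probes of HOXA5, HOXA10, HOXD3 and HOXD10 do not hold it.

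Across the tested HOX genes the ratios of GO and H2O2 over control lay within 0.21 of 0 on the log2 scale after background correction with an offset of 50. Of 22 tested HOX probes, 2 passed an adjusted p of 0.05 (limma, Benjamini-Hochberg over 24230 probes), or 9.09%, against 17.1% of all tested probes. Both were higher with GO and H2O2, in HOXA5 and HOXD3, where 9.49% of all tested probes were called higher. The HOXD3 probe entered the test through the red channel alone, in which it was higher. With both channels required on all 4 arrays, 1 of 17 HOX probes passed, where 3803 of 22910 probes did. None of the 22 was lower, where 7.59% of all probes were called lower; at an unadjusted p below 0.05 there were 5 HOX probes of 22, against 36.7% of all tested probes. With any single array left out no HOX probe passed, where 2 (without replicate 1 or 4), 38 (without replicate 3) and 3903 (without replicate 2) of all probes did; median centring in place of loess and the methods' t-test also left 0 HOX probes. No HOX probe passed with a fold change of at least 1.3, and 1.42% of all probes did. The mean ratios of the HOX probes ran from -0.13 to 0.21, 13 above 0 and 9 below. Their median was 0.013, against 0.0030 over all tested probes. Of the 17 HOX probes that passed in both channels, 9 were above 0. The median of these 17 was 0.0013, against -0.00069 over all probes passing in both channels. The size of the ratios depended on the background correction: with Agilent's processed signals the genes ran from -0.54 (HOXA6, adjusted p = 0.146, limma) to 0.25 (HOXD3) at their brightest probes, and the HOXD3 probe that passed stood at 0.65, or at 0.43 with offset 0. The share of calls depended on which probes were counted. With the probes known only from their description added, 9 of 39 tested HOX probes passed, 5 of them overlapping probes of HOXD9.

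The median ratio of the tested HOX probes was 0.021, 0.036, -0.021 and 0.098 on replicates 1 to 4, so it was below 0 on replicate 3 alone. The median SD over the 4 arrays was 0.088 for HOX probes and 0.093 for all tested probes. HOX probes were dimmer on the whole, with a median log2 signal of 7.51 against 8.97. The same sign on all 4 arrays was seen for 9 of 22 HOX probes, against 43.8% of all tested probes.

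**Figure D2:**
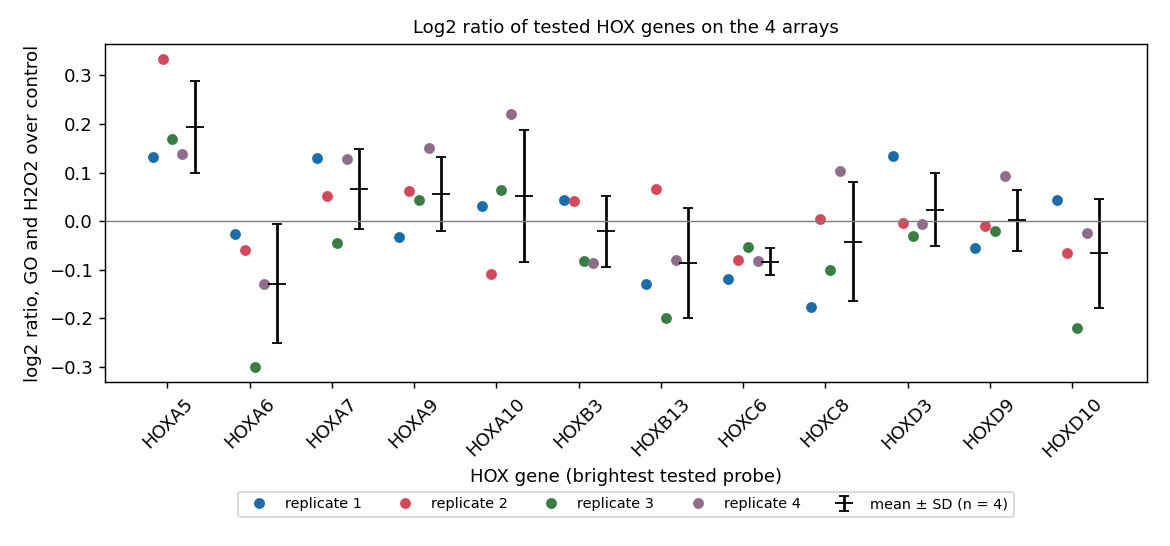
Log2 ratio of GO and H2O2 over control (vertical axis) for 12 tested HOX genes at their brightest tested probe (horizontal axis). Points are the 4 arrays, and bars are the mean ± SD. HOXA5 alone lies above 0 on all arrays by at least 0.13, and HOXA6 and HOXC6 lie below 0 on all arrays without passing the test.

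HOXA5 was the tested HOX gene with the highest mean ratio at its brightest probe. It is a paralogue of the middle of the cluster, known for its part in patterning the neck, upper trunk and lung. The brighter of its probes (chr4:57714984-57715043 on the minus strand) had normalised log2 signals of 8.55, 8.55, 8.39 and 8.42 with GO and H2O2 on replicates 1 to 4, and 8.42, 8.22, 8.22 and 8.28 in the control. The ratios were 0.13, 0.33, 0.17 and 0.14, above 0 on every array and highest on replicate 2. The mean was 0.19 ± 0.095 (SD, n = 4), a fold change of 1.14, with an adjusted p of 0.0414 (limma). The second HOXA5 probe, shifted by 1 base, gave 0.072, 0.21, 0.17 and 0.12, with a mean of 0.14 ± 0.059 (SD, n = 4) and an adjusted p of 0.0605 (limma), which misses the threshold. The probes differed by 0.053 ± 0.055 (SD, n = 4), the brighter being higher on 4 of 4 arrays (exact permutation test, two-sided, p = 0.125, the smallest that 4 arrays allow; adjusted p = 0.125 over 2 such comparisons). Leaving out any single array ended the HOXA5 call, with adjusted p of 0.0756 to 0.115 (limma) and the ratio between 0.15 and 0.21. As RNA of a whole culture was measured, a change in the share of cells that express a HOX gene and in RNA per cell cannot be told apart.

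HOXD3, a low-numbered gene known for its role in patterning the neck vertebrae, had 5 probes, each shifted by 1 base, and 4 of them were tested. The probe that passed (chr18:43115563-43115622 on the plus strand) had ratios of 0.075, 0.17, 0.34 and 0.25, with a mean of 0.21 ± 0.11 (SD, n = 4), a fold change of 1.16 and an adjusted p of 0.0414 (limma). The files do not say whether it lies in coding sequence or a UTR. This probe was well above background on 4 arrays in red and on 1 in green, so it entered the test through the channel in which it was higher; it was not tested when both channels had to pass on all 4 arrays. The brightest HOXD3 probe, which starts 1 base earlier, gave 0.13, -0.0045, -0.030 and -0.0056, with a mean of 0.024 ± 0.075 (SD, n = 4) and an adjusted p of 0.729 (limma). On replicate 1 the brightest probe was the higher of the pair, and on replicates 2 to 4 it was the lower. The other tested HOXD3 probes had means of 0.13 (adjusted p = 0.0754) and 0.081 (adjusted p = 0.265, limma). Both were well above background on 3 arrays in green, so 3 of the 4 HOXD3 probes were tested through the red channel alone. All 4 tested HOXD3 probes had means above 0, spread over 0.19. The mean over them was 0.11 with an adjusted p of 0.0951 (limma), and without any single array the HOXD3 call was lost (adjusted p of 0.0565 to 0.141).

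Among the other genes of groups 1 to 3, HOXB3 gave 0.043, 0.042, -0.082 and -0.086, above 0 on replicates 1 and 2 and below on replicates 3 and 4, with a mean of -0.021 ± 0.073 (SD, n = 4) and an adjusted p of 0.761 (limma). HOXA2, HOXB1 and HOXB2 were not tested.

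In groups 4 to 8, HOXA6 (chr4:57718881-57718940 on the minus strand) had the lowest mean of the tested genes. Its ratios were -0.026, -0.059, -0.30 and -0.13, below 0 on every array and lowest on replicate 3, with a mean of -0.13 ± 0.12 (SD, n = 4) and an adjusted p of 0.141 (limma). HOXA6 was well above background on 4 arrays in green and on 2 in red, and so entered the test through the control channel alone. HOXA7 (chr4:57729701-57729760 on the minus strand), a trunk gene next to it in the cluster, gave 0.13, 0.052, -0.045 and 0.13, above 0 on 3 of 4 arrays, with a mean of 0.066 ± 0.082 (SD, n = 4) and an adjusted p of 0.334 (limma). HOXC6 gave -0.12, -0.081, -0.053 and -0.082, below 0 on 4 of 4 arrays with the smallest spread of the tested HOX probes, and a mean of -0.084 ± 0.027 (SD, n = 4) (adjusted p = 0.156, limma). The brighter HOXC8 probe gave -0.18, 0.0041, -0.10 and 0.10, on both sides of 0. The dimmer, overlapping one gave -0.29, -0.033, -0.15 and -0.0020, below 0 on every array. They averaged -0.042 and -0.12 (adjusted p of 0.607 and 0.182, limma). HOXA6, HOXA7, HOXC6 and HOXC8 did not pass, and the neighbours HOXA5, HOXA6 and HOXA7 lay on both sides of 0.

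In groups 9 to 13, the genes that pattern the limb and the hind part of the trunk, no probe named by symbol passed the test. HOXA9, required with its paralogues for the upper limb, was read by 4 probes shifted by 1 base each. Their means ran from -0.012 to 0.083 (adjusted p of 0.216 to 0.967, limma), and the brightest gave -0.032, 0.062, 0.043 and 0.15, with a mean of 0.056 ± 0.076 (SD, n = 4). HOXA10 (chr4:57743929-57743988 on the minus strand), a gene that satellite cells of the hindlimb are known to express, gave 0.032, -0.11, 0.063 and 0.22, with a mean of 0.052 ± 0.14 (SD, n = 4) and an adjusted p of 0.551 (limma). HOXD10 (chr18:43063056-43063115 on the plus strand) gave 0.044, -0.065, -0.22 and -0.025, with a mean of -0.067 ± 0.11 (SD, n = 4) and an adjusted p of 0.39 (limma). Its second probe, which does not overlap the first, was well above background on 1 array in red alone and was not tested. That probe gave 0.10, 0.26, 0.13 and 0.062, above 0 on 4 of 4 arrays. HOXB13, the most posterior gene of its cluster, gave -0.13, 0.066, -0.20 and -0.080, below 0 on 3 of 4 arrays, with a mean of -0.086 ± 0.11 (SD, n = 4) and an adjusted p of 0.276 (limma).

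HOXD9 was read by 5 overlapping probes, of which 2 were tested. The brightest gave -0.055, -0.010, -0.021 and 0.092, with a mean of 0.0013 ± 0.063 (SD, n = 4) and an adjusted p of 0.985 (limma). The second tested probe, which starts 1 base later, gave 0.0095, 0.34, 0.16 and 0.11, with a mean of 0.16 ± 0.14 (SD, n = 4) and an adjusted p of 0.108 (limma). The second probe was well above background on 4 arrays in red and on 3 in green, so it entered the test through the treated channel alone. These probes differed most on replicate 2, at 0.34 against -0.010.

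**Figure D3:**
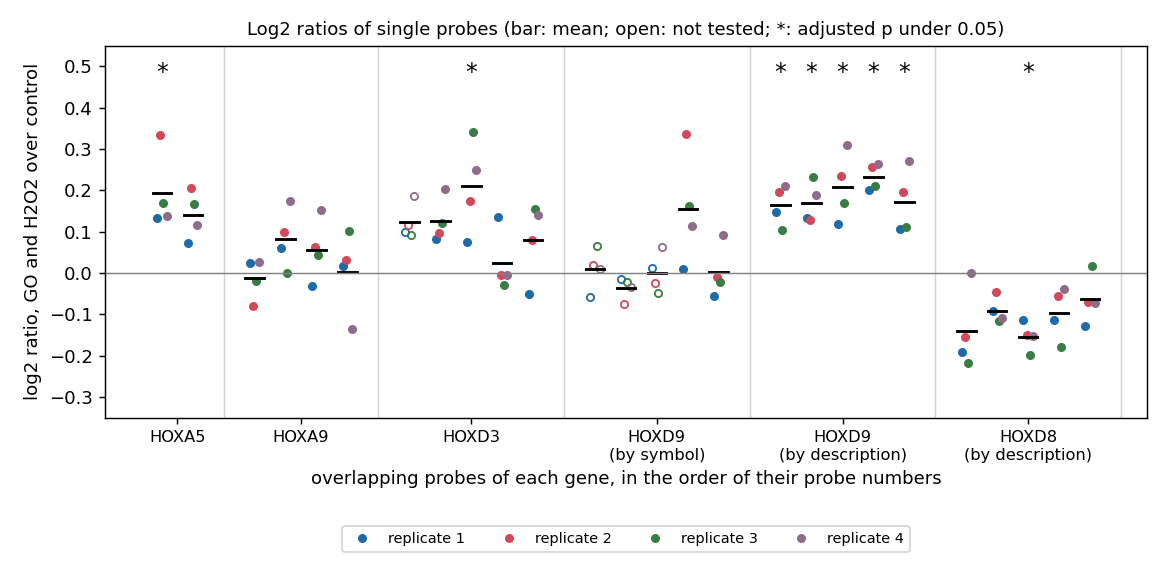
Log2 ratio of GO and H2O2 over control (vertical axis) at each overlapping probe (horizontal axis) of HOXA5, HOXA9, HOXD3, HOXD9 and HOXD8, on the 4 arrays (points), with the mean (bar); open points were not tested and stars mark an adjusted p below 0.05. Probes of HOXD3 shifted by single bases differ from 0.024 to 0.21 in mean, whereas the 5 HOXD9 probes known from their description lie from 0.17 to 0.23.

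At the brightest tested probe of each gene, 6 HOX genes had a mean above 0 and 7 below, with a median of -0.021. By cluster, the median over tested probes was 0.054 in HOXA (10 probes), -0.053 in HOXB (2 probes), -0.084 in HOXC (3 probes) and 0.081 in HOXD (7 probes, 4 of them of HOXD3). In the HOXD cluster, 4 of these probes passed the filter in red alone, the channel in which they were higher. Over the probes that passed in both channels, the median was 0.056 in HOXA (9 probes), -0.053 in HOXB (2 probes), -0.084 in HOXC (3 probes) and 0.0013 in HOXD (3 probes). Differences between clusters were not tested.

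HOX proteins act with TALE cofactors, and 8 of the 9 listed cofactor genes were on the array by symbol, 6 of them tested. PKNOX1 was the only one that passed, and it was lower, at -0.17, -0.080, -0.30 and -0.17 and a mean of -0.18 ± 0.090 (SD, n = 4) (adjusted p = 0.0463, limma). This call was lost in 10 of the 14 other settings tried. MEIS1 was below 0 on 4 of 4 arrays without passing (-0.15 ± 0.094 (SD, n = 4), adjusted p = 0.0759, limma), and MEIS3 was above 0 on 3 of 4 (0.19 ± 0.16 (SD, n = 4), adjusted p = 0.0842, limma). MEIS3 was well above background on 1 array in the control channel, so it entered the test through the treated channel alone, in which its mean was higher. PBX3 and MEIS2 had means of 0.11 and 0.038 (adjusted p of 0.099 and 0.635, limma), and PBX2 and PKNOX2 were not tested. The median over the 6 cofactors was 0.057, and for these and the following lists 17.1% of all tested probes passed, with a median of 0.0030. Like the HOX calls, all those followed from these lists were lost with median centring, the methods' t-test and without replicate 1, 3 or 4. Beyond the cofactors, up to 3 calls of each list were followed through the other settings, and DOT1L below was not among them.

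Among the chromatin regulators of the clusters, 20 of 25 Polycomb genes on the array were tested, of which 1 was called higher and 2 lower, with a median of 0.014. RBBP7, a histone-binding subunit of Polycomb complex PRC2 and of other complexes, was lower at -0.21, -0.30, -0.26 and -0.45, a mean of -0.30 ± 0.10 (SD, n = 4) (adjusted p = 0.0194, limma). AEBP2, an accessory subunit of PRC2, was lower at -0.24 ± 0.090 (SD, n = 4) (adjusted p = 0.0265, limma). RING1, a ubiquitin ligase of PRC1, was higher at 0.17, 0.17, 0.18 and 0.19, nearly the same value on each array, with an adjusted p of 0.0288 (limma). EZH2, the methyltransferase of PRC2, did not pass (-0.11 ± 0.35 (SD, n = 4), adjusted p = 0.549, limma), and its ratio was above 0 on replicate 2 and below 0 on the others.

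Of 12 genes of MLL complexes and partners on the array, 11 were tested, with 3 called higher and 1 lower and a median of -0.036. The genes called higher were ASXL1, KDM6B and DOT1L. ASH2L, RBBP5, WDR5, DPY30, MEN1 and KMT2C had means below 0 and MLLT3 above 0, and none of these passed. ASXL1, a chromatin regulator of the deubiquitinase complex that opposes PRC1, was higher at 0.29, 0.32, 0.48 and 0.20, a mean of 0.32 ± 0.12 (SD, n = 4) (adjusted p = 0.0194, limma), although 2 of its 3 probes were not tested. KDM6B, a demethylase that removes the Polycomb mark from histone H3, was higher at 0.20 ± 0.098 (SD, n = 4) (adjusted p = 0.0386, limma). PSIP1, which tethers MLL complexes to chromatin, was lower at -0.36, -0.22, -0.22 and -0.19, a mean of -0.25 ± 0.076 (SD, n = 4) (adjusted p = 0.0218, limma).

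The retinoic acid pathway had the highest share of calls among these 6 lists. Of its 15 genes on the array 8 were tested, with 4 higher and none lower, and all 8 means above 0 (median 0.16). The untested genes (ALDH1A1, ALDH1A2, CRABP1, RARA, RDH10, RXRG and STRA6) had probe means on both sides of 0, from -0.15 to 0.27. RXRA was tested at 1 of its 5 probes. DHRS3, which turns retinal back into retinol and is itself a retinoic acid target, was higher at 0.56, 0.84, 0.36 and 0.22, a mean of 0.49 ± 0.27 (SD, n = 4) (adjusted p = 0.0262, limma), and all 5 of its probes passed. CRABP2, which carries retinoic acid to its nuclear receptors, was higher at 0.40, 0.19, 0.34 and 0.41, a mean of 0.33 ± 0.10 (SD, n = 4) (adjusted p = 0.0169, limma). RARB, a retinoic acid receptor and target gene, was higher at 0.36, 0.51, 0.12 and 0.33, a mean of 0.33 ± 0.16 (SD, n = 4) (adjusted p = 0.0252, limma), and it passed at 1 of its 2 tested probes. The list holds 8 tested genes only and was drawn up with earlier results of these data known.

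Of the CDX and cluster-boundary factors, 6 of 10 were tested, with 2 lower and none higher and a median of -0.084. Both encode subunits of cohesin, the ring that holds chromatin loops, while the tested cohesin genes STAG1 and STAG2 did not pass (0.025 and -0.050, adjusted p of 0.683 and 0.545, limma). RAD21 was at -0.36, -0.29, -0.23 and -0.49, a mean of -0.34 ± 0.11 (SD, n = 4) (adjusted p = 0.0177, limma), and SMC3 was at -0.20 ± 0.11 (SD, n = 4) (adjusted p = 0.0452, limma). CTCF, the insulator protein at HOX cluster boundaries, had a mean of -0.019 ± 0.088 (SD, n = 4) and did not pass (adjusted p = 0.798, limma). GMNN passed lower at 1 of its 2 tested probes but not at its brightest, with means from -0.28 to -0.12. CDX1 and CDX4 were not tested. Of the genes beside the HOX clusters, 9 of 12 were tested, with 1 higher and 1 lower and a median of -0.041. CALCOCO1, beside the HOXC cluster, was higher at 0.18 ± 0.057 (SD, n = 4) (adjusted p = 0.0345, limma). HNRNPA1, an abundant splicing protein gene on the other side, was lower at its brightest probe at -0.25 ± 0.17 (SD, n = 4) (adjusted p = 0.0477, limma), while its 10 probes ranged from -0.46 to 0.12.

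**Figure D4:**
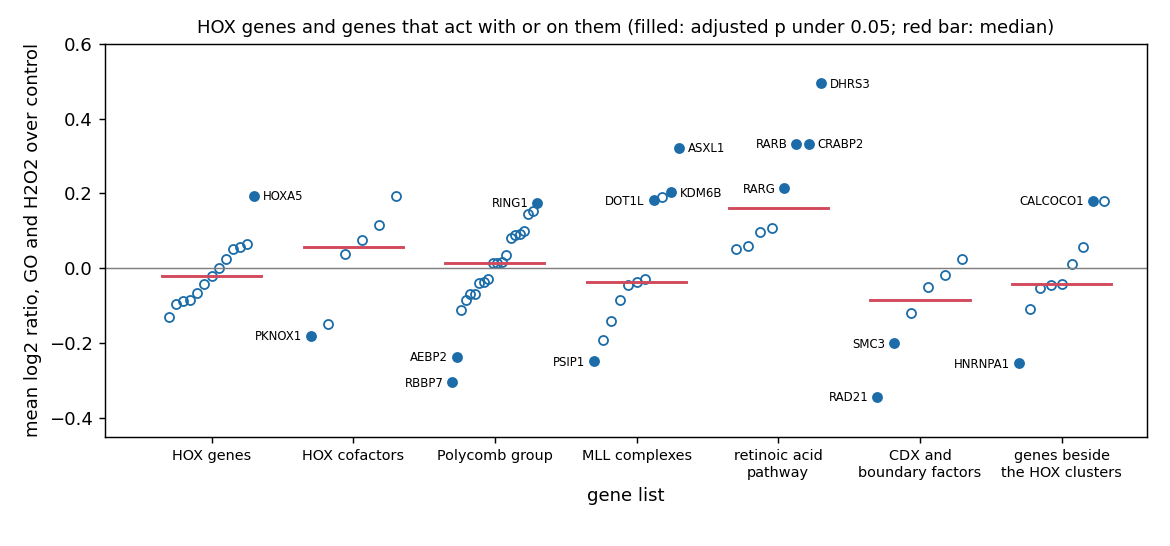
Mean log2 ratio of GO and H2O2 over control (vertical axis) of each tested gene at its brightest probe, for the HOX genes and the 6 lists of genes that act with or on them (horizontal axis). Filled points passed an adjusted p of 0.05 and red bars are list medians. The 8 tested retinoic acid genes all lie above 0, and the 13 tested HOX genes lie from -0.13 to 0.19.

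The labelled cell type was checked against markers. Of 10 listed muscle lineage markers 8 were found by symbol, and PAX7 and CDH15 were not. The 8 found were all well above background (among them MYF5, MYOD1, MYOG and DES). Among them 4 were called higher and none lower, where 9.49% of all tested probes were called higher and 7.59% lower. MYOG was at 0.33 ± 0.13 (SD, n = 4) (adjusted p = 0.0212, limma). The marker calls were not followed through the other settings, in which as few as 2 of all tested probes passed. None of 5 endothelial, 3 adipocyte and 3 nerve and glia markers was tested. Of 7 fibroblast markers 5 were tested, with LUM lower at -0.43 ± 0.10 (SD, n = 4) (adjusted p = 0.0131, limma) and THY1 higher at 0.28 ± 0.14 (SD, n = 4) (adjusted p = 0.029, limma), and of 5 immune markers 2 were tested, with CD14 lower at -0.17 ± 0.061 (SD, n = 4) (adjusted p = 0.0385, limma). Of 4 smooth muscle and pericyte markers, 2 were tested and none passed. Fibroblast markers were bright: COL3A1 and DCN had mean log2 signals of 16.9 and 15.4, beside 16.0 for MYH3 and 7.3 for MYOD1. Signals of different probes do not give the shares of cell types. As fibroblasts also carry a regional HOX pattern, their markers are given here, and their part in the HOX ratios was not tested. The share of gene probes well above background was 56.7% to 61.4% in red and 54.9% to 61.3% in green, and no gene spot was saturated.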

How the data were processed

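RNA of GO and H2O2 treated ESCs (red) and of control ESCs (green) was hybridised to 4 arrays of a single slide. The deposited files hold spot intensity values from Agilent Feature Extraction 10.10.1.1, and the authors' log10 ratios from the same software, which equal the values of the series matrix (largest difference 0). The study's methods name GeneSpring with Student's test, an adjusted p of 0.05 and a fold change of 1.3, although its gene list is described with a lower fold limit; the order of its steps is not given in the sources used here. For the main analysis, mean intensities were corrected with normexp (offset 50) on the median local background and loess normalised within each array in limma 3.58.1 (R 4.3.3), with control spots at weight 0 and outlier spots left out; spots of a probe were averaged. Probes well above background on all 4 arrays in red or in green were kept (24230 of 43603). The mean log2 ratio of each probe was tested against 0 with limma, and p-values were adjusted by Benjamini-Hochberg over all 24230 probes. Single paired differences were tested by exact sign permutation (SciPy 1.17.1). The limma script was tested on simulated data.

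Red and green of each array were kept together as a pair, since each array holds both samples. For genes with several probes the brightest tested probe stood for the gene. The tested HOX genes were named; per-array values were given for those past the threshold at any probe, for the 3 highest and the 3 lowest means, for those detected in only 1 channel on all arrays and for several others, and of each list all cofactors and up to 3 genes past the threshold with the smallest p; other genes were named after their values were seen, and 2 genes that the rule names are not reported here. The members and the lists were chosen with earlier results of these data known. Coordinates are those of the files (EquCab1 per the file headers); the RefSeq table (another build) served for names only. Alternatives covered background correction, normalisation, filters, the test, the pairing and leaving out each array. Arrays limit the precision through their number.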

Additional observations from a re-analysis of the deposited data

Results flagged for a closer look

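The brightest HOXD3 probe had a single array far from the others: the gap of replicate 1 to its nearest neighbour was 0.845 of the range over 4 arrays, above the limit of Dixon's test. Replicate 1 stood at 0.13 and the others from -0.030 to -0.0045, and without replicate 1 the mean was -0.013. Chance alone gives about 1 in 20 such sets, and no other tested HOX gene at its brightest probe, nor the median of the HOX probes, stood apart in this way.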

How the results depend on the processing

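The median ratio of the tested HOX probes stayed between -0.0071 (median centring) and 0.056 (Agilent's processed signals). None of the 23 probes past the threshold that were followed changed its direction in any setting. Other calls, such as DOT1L and the markers, were not followed. The number of HOX genes well above background, 13, became 12 when both channels had to pass, 15 with a single array in either channel, 17 with Agilent's flag for positive and significant signals, and 13 to 14 without single arrays. The count of HOX probes past the threshold, 2, became 4 with Agilent's processed signals or the series matrix values (1 with a fold change of at least 1.3, at HOXD3), 4 without background correction, 1 with normexp at offset 0 (1 with the fold change limit), 1 when both channels had to pass, and 0 with median centring, where 12 of all probes passed against 4137. The methods' t-test called 0 HOX probes and 5 of all probes. Without the replicate block, that is with the pairing of red and green by array dropped, 0 HOX probes and 594 of all probes passed. Leaving out a single array gave 0 HOX probes each time (0 to 0) and 2 to 3903 of all probes: the lowest when replicate 1 or replicate 4 was dropped, 38 when replicate 3 was, and the highest when replicate 2 was. With the HOX probes known only from their description counted too, 9 of 39 tested probes passed, where 17.1% of all tested probes did. This alternative was chosen after seeing the data. HOXA5 lost its call with offset 0 (adjusted p = 0.0515), median centring (0.805), the methods' t-test (0.136), no pairing (0.128) and each array left out, in limma unless named. At the brightest HOXD3 probe, Agilent's processed signals raised the ratio from 0.024 to 0.25 (adjusted p = 0.0464, limma). Of the 23 followed probes, HOX and others, 16 kept the call without replicate 2 and 4 without the pairing. With median centring, with the t-test and without replicate 1, 3 or 4, 0 kept it. The cause of these changes was not tested. The precision is limited by 4 arrays, and dye and treatment cannot be told apart.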

Other observations

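A further 33 probes name a HOX gene in their description, with a transcript identifier in place of the symbol, and 17 of them were tested. Of these, 6 passed higher and 1 lower (limma, adjusted p of 0.05), against 9.49% and 7.59% of all tested probes; the 6 higher probes come from 2 genes, and 5 of them overlap. HOXD13, the most posterior gene of the HOXD cluster and a regulator of digit formation, gave 0.29, 0.19, 0.23 and 0.25, above 0 on every array, with a mean of 0.24 ± 0.041 (SD, n = 4), a fold change of 1.18 and an adjusted p of 0.0192 (limma). HOXD8, 5 overlapping probes, had 5 means below 0, from -0.15 to -0.064, of which 1 passed, at -0.11, -0.15, -0.20 and -0.15 (adjusted p = 0.0409, limma). HOXC9, 5 overlapping probes, had 5 means below 0, from -0.16 to -0.063, and none passed (smallest adjusted p = 0.0579, limma). HOXB9 was below 0 on 4 of 4 arrays at -0.094 ± 0.041 (SD, n = 4) (adjusted p = 0.133, limma).

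HOXD9 was read in 2 places, by the symbol-named probes described above and by 5 probes of a predicted RefSeq transcript described as Hox-D9-like, which lie 285 bases further along the same strand of chromosome 18. All 5 of the latter passed, with means from 0.17 to 0.23 (adjusted p of 0.0191 to 0.0458, limma), and the 2 tested symbol-named probes did not. The second of these 2, with a mean of 0.16, entered the test through the red channel alone. The untested symbol-named probes, with means from -0.036 to 0.0089, are left out of the comparison below, so the filter shaped it. The mean over the 5 probes was 0.14, 0.20, 0.17 and 0.25 on replicates 1 to 4, and that over the 2 was -0.023, 0.16, 0.070 and 0.10. The difference was 0.11 ± 0.056 (SD, n = 4), above 0 on 4 of 4 arrays (exact permutation test, two-sided, p = 0.125, the smallest that 4 arrays allow; adjusted p = 0.125 over 2 such comparisons). The log2 signals also differed, at 6.96 and 6.72 for the symbol-named probes in the control channel and 7.85 to 8.46 for the others, and their part in the difference was not tested.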
